A study of Mus musculus with 14 samples.

Results

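An inhibitor of the kinase JAK1 was set against a JAK1/2 inhibitor and a pan-JAK inhibitor, named here by their target labels (JAK1, JAK1/2 and PAN; IFN.3404, IFN.6221 and IFN.6222 in the sample titles). The comparison takes 6 of the 14 arrays of the series, 1 for each of these 3 compounds at 2 h and at 8 h, chosen by the compound code and target label of each sample. All 14 arrays measured RNA of CD4+ T cells taken from spleens of male C57BL/6 mice aged 6 weeks. The cells had been stimulated through CD3 and CD28 with beads for 48 h, and every culture then received interferon alpha at 100 U/ml together with 1 inhibitor at its IC80. The remaining inhibitors were labelled TYK2 (IFN.2485), JAK2 (IFN.3885) and, for a pair of compounds, JAK3 (IFN.6226 and IFN.6228). Their 8 arrays served to estimate the spread, and their levels are given only where they are named. The compounds are known here by code and label alone, and their concentrations are not given in the sources used here. Cultures that had no inhibitor or no interferon are not part of the comparison. Each compound and time had 1 array and no repeat, and the labels do not say how many mice gave the cells, so no p-value below measures the spread between repeated cultures.

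Interferon alpha binds the receptor chains IFNAR1 and IFNAR2, whose tails carry the kinases TYK2 and JAK1. These kinases phosphorylate STAT proteins, among them STAT2, which with IRF9 switches on antiviral genes through a short promoter element, the interferon-stimulated response element. JAK1 also works beside JAK3 on the interleukin-2 receptor of activated T cells, which signals mainly through STAT5.

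Values are log2 intensities, on which a difference of 1 is a doubling, and they can be compared between arrays for 1 gene but not between genes. The median intensity of an array was at least 109.03 and at most 120.5. At 8 h, the array of the JAK1 inhibitor differed from the rest: its mean Pearson r with the other arrays at 8 h was 0.9897 across probe sets, which are not independent replicates, and its upper quartile of 398 was the lowest of all 14. CD4 T cell markers were bright throughout, with Cd3e at 12.35 and 12.30 and Cd4 at 11.77 and 12.11 with the JAK1 inhibitor, against 12.31 to 12.50 and 11.62 to 12.03 with the JAK1/2 and pan-JAK inhibitors. Of 10 granulocyte markers 1 was bright enough to test, and of 8 NK cell markers 3 were. As means over all arrays, S100a8 of granulocytes was at 4.32 and Ncr1 of NK cells at 4.47, but Nkg7 of the NK cell list was at 9.37. Some markers of other cells were bright too. Cd8b1 of CD8 T cells was at 8.99, Cd79b and Ms4a1 of B cells at 9.57 and 8.57, and Cd74 and H2-Aa of the dendritic cell list at 10.14 and 9.53. Of 7 B cell markers, 4 macrophage markers, 5 dendritic cell markers and 3 NK cell markers bright enough to test, 1 was called with time in the fit (Ctss, lower), a call lost in 12 of the alternative settings. At 8 h, 1 macrophage and 1 NK cell marker were lower and 1 dendritic cell marker was higher. Of all genes tested, 16% were lower at 8 h and 2.19% higher. Genes of skeletal muscle differed between the arrays: the mean over 22 such genes was 6.54 at 2 h and 6.94 at 8 h with the JAK1 inhibitor, 7.05 and 7.01 with the JAK1/2 inhibitor, and 6.45 and 6.52 with the pan-JAK inhibitor, while the other 8 arrays lay between 6.28 and 6.58. The part of this muscle RNA in the results was not tested beyond leaving out the 3 arrays with the most of it, given below. That fit holds no array of the JAK1/2 inhibitor. In bulk RNA, fewer cells expressing a gene and less of its RNA per cell cannot be told apart.

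With time in the fit, 46 of the 113 genes called lower with the JAK1 inhibitor were in a list of interferon-induced genes and 60 were in no list. Members of the type I interferon list were 24.2% of the genes lower at 2 h and 3.32% of the far more numerous genes lower at 8 h. That list held 70 of the 11851 genes tested, and the list of interferon-inducible GTPases held 10. Of 11851 genes tested, 113 were called lower with the JAK1 inhibitor (0.954%) and 4 higher (0.0338%), at an adjusted p under 0.05 in limma with Benjamini-Hochberg adjustment over all genes. The 113 differed from the JAK1/2 and pan-JAK inhibitors by -2.26 to -0.34 on the log2 scale, where the median of all genes was -0.05. All 113 were also called lower at 8 h and 98 of them at 2 h. The level with the JAK1 inhibitor was the lowest of all 7 inhibitors at both times for all 113, as it was for 12.6% of all genes tested. The call itself favours this, since all 113 lay below both the JAK1/2 and pan-JAK inhibitors at both times. Over all genes tested, 2644 lay below both at both times and 1491 were the lowest of all 7. The position thus describes the levels and is no separate support for the calls. Without the 8 h array of the JAK1 inhibitor the fit called 65 genes lower and 1 higher, and 52 of those 65 were among the 113. The 3 arrays with more skeletal muscle RNA were those of the JAK1/2 inhibitor at 2 h and 8 h, and of the JAK1 inhibitor at 8 h. Leaving them out set the 2 h array of the JAK1 inhibitor against the pan-JAK inhibitor alone, so it is not a check against both compounds. The median difference of all genes was then 0.02. Quantile normalization gave 93 lower and 40 higher, and cyclic loess 108 lower and 37 higher, so the share of higher calls depends on the scaling. Without both arrays of the JAK1/2 inhibitor the fit called 64 genes and without both of the pan-JAK inhibitor it called 42, all lower.

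Rtp4, a chaperone of receptor transport that interferon induces, showed the largest difference. Its log2 level was 6.29 at 2 h and 8.08 at 8 h with the JAK1 inhibitor, against 8.59 and 8.78 at 2 h and 10.13 and 10.28 at 8 h with the JAK1/2 and pan-JAK inhibitors. The level with the JAK1 inhibitor at 8 h was thus still below that of both other compounds at 2 h. The difference with time in the fit was -2.26 (SE 0.22, adjusted p = 0.000163), a 4.79-fold lower level. Usp18, the protease that strips ISG15 from proteins and restrains the interferon receptor, was at 7.32 and 8.74 with the JAK1 inhibitor, against 9.14 and 9.32 at 2 h and 10.85 with both compounds at 8 h (4.04-fold lower, -2.01, SE 0.24, adjusted p = 0.000637).

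Ifit3 and Ifit1 belong to a family of proteins that bind foreign RNA. Ifit3 stood at 5.93 at 2 h and 7.13 at 8 h with the JAK1 inhibitor, against 7.19 and 7.51 at 2 h and 9.43 and 9.63 at 8 h with the JAK1/2 and pan-JAK inhibitors (-1.91, SE 0.27, adjusted p = 0.00265). Ifit1 was at 7.21 and 8.52 with the JAK1 inhibitor, against 8.82 and 9.003 at 2 h and 10.33 and 10.43 at 8 h (-1.78, SE 0.23, adjusted p = 0.00136). Irf7, a transcription factor that amplifies interferon production, was at 7.23 and 8.88 with the JAK1 inhibitor, against 9.01 and 8.86 at 2 h and 10.48 and 10.47 at 8 h (-1.65, SE 0.20, adjusted p = 0.000824). For each of these genes the 2 arrays of the JAK1 inhibitor lay below the 2 arrays of the JAK1/2 and pan-JAK inhibitors of the same time, by more than the JAK1/2 and pan-JAK inhibitors differed from each other.

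A pair of genes of the Ifi200 family, which encodes nuclear DNA sensors and their relatives, was also among the 10 largest. Ifi213 was at 6.93 and 8.73 with the JAK1 inhibitor, against 8.57 and 8.84 at 2 h and 10.35 and 10.46 at 8 h with the JAK1/2 and pan-JAK inhibitors, and had the lowest adjusted p of all genes (-1.73, SE 0.14, adjusted p = 6.49e-05). Ifi214 was at 7.50 and 8.67 with the JAK1 inhibitor, against 8.66 and 8.90 at 2 h and 10.36 and 10.33 at 8 h (-1.48, adjusted p = 0.000113). The 3 further members Ifi208, Ifi203 and Ifi209, picked after their values were seen, were called lower as well, with differences of -0.96, -0.71 and -0.66 in that order. The 3 calls held without the 8 h array of the JAK1 inhibitor and were lost without the arrays of the pan-JAK inhibitor, and cyclic loess also lost those of Ifi208 and Ifi209.

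Mx2, a dynamin-like GTPase that blocks viruses, was at 5.02 and 5.25 with the JAK1 inhibitor, against 5.87 and 6.08 at 2 h and 7.29 and 7.41 at 8 h with the JAK1/2 and pan-JAK inhibitors (-1.53, adjusted p = 0.0015). All of these Mx2 levels but those with the JAK1/2 and pan-JAK inhibitors at 8 h lay under 6.269, the mean level set for testing. Rsad2, which encodes the antiviral enzyme viperin, was at 6.54 and 6.81 with the JAK1 inhibitor, against 7.25 and 7.33 at 2 h and 8.80 and 9.20 at 8 h (-1.47, adjusted p = 0.0168). Rsad2 was the 1 gene of the 10 largest whose call was lost without the 8 h array of the JAK1 inhibitor, with a difference of -1.07 and an adjusted p of 0.267. At 2 h alone its difference was -0.75 and was called.

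**Figure D1:**
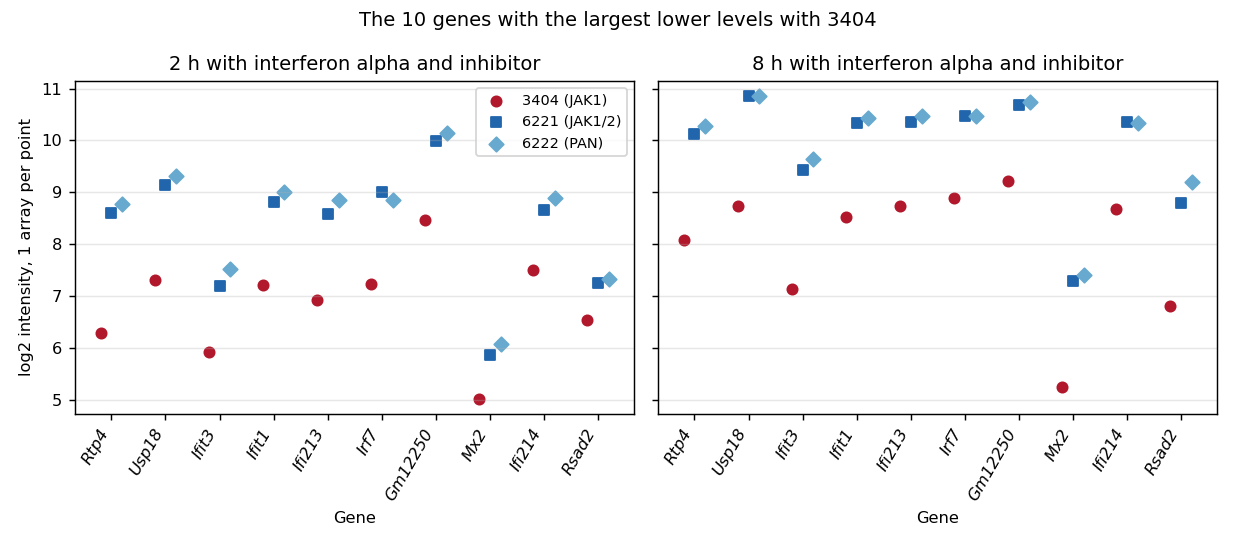
Log2 intensity of the 10 genes with the largest lower levels with the JAK1 inhibitor, at 2 h (left panel) and 8 h (right panel), 1 point per array, with no error bars since no array was repeated. The JAK1 inhibitor's point lies under those of the JAK1/2 and pan-JAK inhibitors at both times, as the rule that chose the 10 genes requires, with a difference of -2.26 for Rtp4 and -1.47 for Rsad2 with time in the fit.

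The promoters of the genes called lower were searched for the core letters of the interferon-stimulated response element, which are GAAA, any 2 bases and a further GAAA, on both strands of the 250 bases before the gene start (RefSeq, GRCm38.p6). Stretches of 150 bases are shown for 5 of the 10 largest differences whose window holds it, written on the strand of the gene with the element or its reverse complement in capitals. Ifit1 lies on chr19:34640725-34640874 (plus strand), Ifit3 on chr19:34583313-34583462 (plus), Gm12250 on chr11:58183692-58183841 (plus), Rsad2 on chr12:26456483-26456632 (minus) and Ifi213 on chr1:173599273-173599422 (minus).
Ifit1: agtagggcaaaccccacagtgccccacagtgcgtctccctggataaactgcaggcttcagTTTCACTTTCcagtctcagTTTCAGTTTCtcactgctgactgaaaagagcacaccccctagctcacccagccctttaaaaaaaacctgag
Ifit3: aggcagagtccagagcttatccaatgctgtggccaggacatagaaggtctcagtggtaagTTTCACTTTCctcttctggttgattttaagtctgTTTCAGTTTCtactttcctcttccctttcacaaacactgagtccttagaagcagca
Gm12250: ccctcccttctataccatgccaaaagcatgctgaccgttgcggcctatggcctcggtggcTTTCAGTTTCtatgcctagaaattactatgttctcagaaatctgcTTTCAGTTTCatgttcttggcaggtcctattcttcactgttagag
Rsad2: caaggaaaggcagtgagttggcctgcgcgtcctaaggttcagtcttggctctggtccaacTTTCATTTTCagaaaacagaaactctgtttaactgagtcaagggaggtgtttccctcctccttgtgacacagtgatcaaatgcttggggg
Ifi213: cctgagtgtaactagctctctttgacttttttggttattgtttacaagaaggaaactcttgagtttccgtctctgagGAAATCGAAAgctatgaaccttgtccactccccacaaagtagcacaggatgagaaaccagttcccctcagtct

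Ifit1, Ifit3 and Gm12250 each hold the letters at 2 places, and Rsad2 and Ifi213 at 1. Of the 113 genes called lower, 89 had a promoter window in RefSeq and 22 of those held the element (24.7%), against 291 of 9497 genes tested (3.06%) and 978 of all 32851 windows (2.98%). Within the type I interferon list, 9 of 27 called members with a window held it (33.3%) and 7 of 27 members that were not called (25.9%). All 5 GTPase genes with a window held it. The letters TTCNNNGAA, a core to which STAT dimers bind, were in 10 of the 89 windows (11.2%) and in 7.11% of the windows of all genes tested. Both sets of letters were counted independently, so 1 window can hold both. A match describes the letters only, and the windows of Irf7, Xaf1 and Ube2l6 had no match for the first. Rtp4, Usp18 and Oas2 had no window to search, and Mx2 and Ifi214 were not looked at singly.

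The type I interferon list, 80 antiviral genes of which 73 had a probe set of their own and 70 were bright enough to test, had 37 members called lower and 0 higher. Of all genes tested, 0.954% were called lower and 0.0338% higher. All 70 members had a negative difference, as did 7489 of the 11851 genes tested. The list median was -0.61, where the median of all genes was -0.05. Under quantile normalization 69 were negative and 26 called, and under cyclic loess 70 and 27. Its median was -0.47 at 2 h, with 43 members called lower (1.5% of all genes were), and -0.79 at 8 h, with 63 called lower (16% of all genes were). Without the 8 h array of the JAK1 inhibitor, 23 members were called, 66 were negative and the median was -0.61. Without the 3 arrays with more skeletal muscle RNA, which left the pan-JAK inhibitor alone to compare with, the median was -0.67. The mean log2 level over the 70 members was 8.44 at 2 h and 8.89 at 8 h with the JAK1 inhibitor, against 8.96 and 9.80 with the JAK1/2 inhibitor and 9.03 and 9.88 with the pan-JAK inhibitor. The level with the JAK1 inhibitor was the lowest of all 7 inhibitors: the TYK2 inhibitor was at 8.96 and 9.68, and the JAK2 and both JAK3 inhibitors lay between 9.64 and 9.70 at 2 h and reached up to 10.09 at 8 h. The level with the JAK1 inhibitor at 8 h was below that of the JAK1/2 and pan-JAK inhibitors at 2 h for 41 of the 70 members (58.6%), near the 54.4% of all genes tested.

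**Figure D2:**
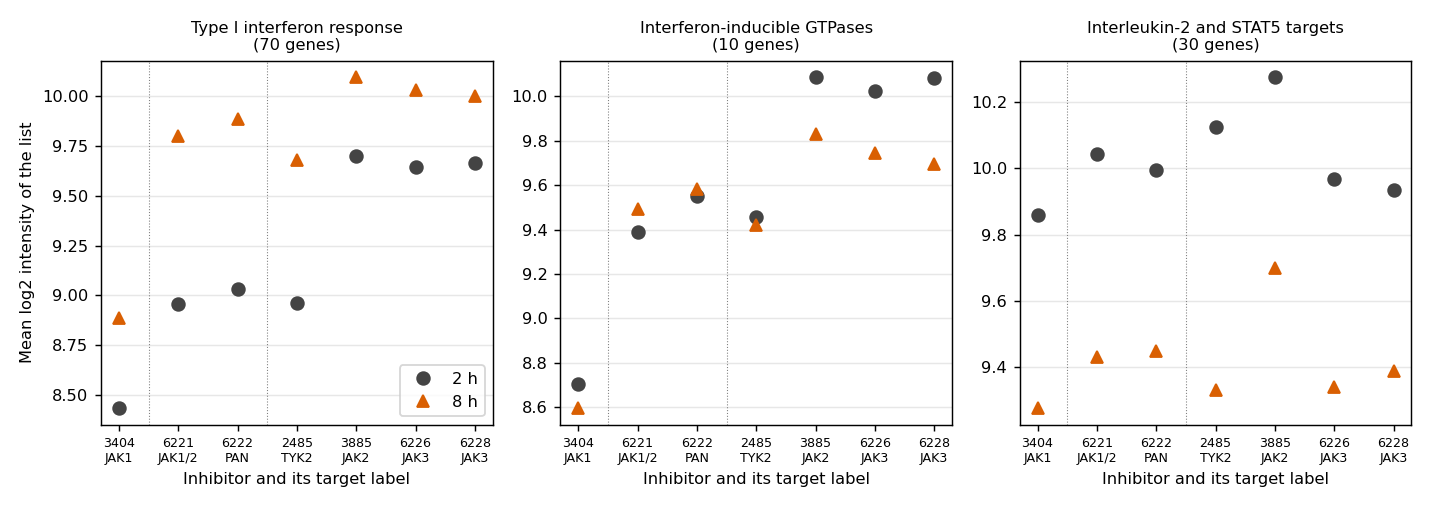
Mean log2 intensity over the genes tested of 3 lists for each inhibitor, with circles for 2 h and triangles for 8 h, 1 array per point and a vertical scale of its own in each panel. The JAK1 inhibitor (leftmost) has the lowest point of both times in all 3 panels, with 8.44 and 8.89 in the type I interferon panel.

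Members of the list differed in how the gap between compounds changed with time. For Rtp4, Usp18, Irf7, Ifit1 and Xaf1, an adaptor of cell death, the gap was about as wide at 8 h as at 2 h, and the test of the change gave adjusted p-values from 0.265 to 0.656. Lgals3bp, a secreted glycoprotein, was at 9.06 and 10.09 with the JAK1 inhibitor, against 10.28 and 10.25 at 2 h and 11.29 and 11.34 at 8 h with the JAK1/2 and pan-JAK inhibitors, a difference of -1.21 at 2 h and -1.23 at 8 h. Oas1b, an enzyme that makes oligoadenylates to activate RNase L, differed by -1.16 at 2 h and -1.14 at 8 h.

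In other members the gap was wider at 8 h. Ube2l6, the enzyme that passes ISG15 on to its targets, was at 7.96 at 2 h and 6.65 at 8 h with the JAK1 inhibitor, against 7.87 and 7.79 at 2 h and 8.15 and 8.39 at 8 h with the JAK1/2 and pan-JAK inhibitors. Its 2 h values were close together, and its 8 h value with the JAK1 inhibitor was the lowest of the 6. The change of the difference from 2 h to 8 h was -1.75 (adjusted p = 0.0148). Oas2, another oligoadenylate synthetase, was at 6.73 and 6.99 with the JAK1 inhibitor, against 6.72 and 6.99 at 2 h and 8.57 and 8.66 at 8 h (change -1.495, adjusted p = 0.0132). Rsad2 (-1.44), Oasl2 (-1.32), Mx2 (-1.14) and Ifit3 (-0.98) were called in the same direction. At 2 h, Mx2 with each compound compared and Ifit3 with the JAK1 inhibitor lay under 6.269, the mean level set for testing. Whether dim signal at 2 h narrowed their gaps at that time was not tested. In all, 9 of the 26 genes with a lower change (0.219% of genes tested) were members of the list. Without the arrays of the JAK1/2 inhibitor, 1042 genes were called in either direction in this test, against 41 with them. The fit without them took its spread from the JAK3 pair alone. Ube2l6 and Oas2 were not called with time in the fit (adjusted p = 0.229 and 0.0958), nor at 2 h. The wider gaps rest on the 8 h array of the JAK1 inhibitor, and whether that array or the time accounts for them cannot be told apart.

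Some members of the type I list were picked after their values were seen. Dhx58, Ifih1 and Ddx58, which encode the sensors of viral RNA LGP2, MDA5 and RIG-I, differed by -1.38, -0.97 and -0.64. Eif2ak2, the kinase PKR that halts translation, was at 7.92 and 7.94 with the JAK1 inhibitor, against 8.86 and 9.09 at 2 h and 9.45 and 9.65 at 8 h with the JAK1/2 and pan-JAK inhibitors (-1.34, adjusted p = 0.000336). The calls of Dhx58 and Eif2ak2 held without the 8 h array of the JAK1 inhibitor, and those of Ifih1 and Ddx58 did not (adjusted p = 0.135 and 0.193). The call of Ddx58 was lost in 10 settings in all, among them quantile normalization and cyclic loess. Other members showed small differences that were not called: Ly6e, a surface protein, was at 13.09 and 13.09 with the JAK1 inhibitor, against 13.11 and 13.03 at 2 h and 13.32 and 13.38 at 8 h, and Tor3a differed by -0.09.

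The interferon-inducible GTPases, which attack vacuoles that hold microbes, had 9 of 10 tested members called lower and 0 higher, with a median of -0.71 (-0.61 at 2 h and -0.95 at 8 h). The share called lower over all genes tested was 0.954%. Gm12250, the immunity-related GTPase also known as Irgb10, was at 8.46 and 9.22 with the JAK1 inhibitor, against 9.996 and 10.14 at 2 h and 10.68 and 10.74 at 8 h with the JAK1/2 and pan-JAK inhibitors (-1.55, SE 0.17, adjusted p = 0.000291). Iigp1 was at 6.99 and 6.84 with the JAK1 inhibitor, against 7.97 and 8.27 at 2 h and 8.56 and 8.72 at 8 h (-1.47, adjusted p = 0.000336). Gbp11 was at 8.11 and 7.58 with the JAK1 inhibitor, against 8.76 and 9.05 at 2 h and 8.48 and 8.81 at 8 h (-0.93, adjusted p = 0.000202).

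Gbp4, a guanylate-binding protein, was at 10.15 and 10.01 with the JAK1 inhibitor, against 10.59 and 10.69 at 2 h and 10.69 and 10.68 at 8 h (-0.59, adjusted p = 0.00254). All 10 members lay below both other compounds at both times, as did 22.3% of all genes tested. Gbp3 was the member that was not called (-0.30, adjusted p = 0.29). The mean over the 10 members was 8.70 at 2 h and 8.60 at 8 h with the JAK1 inhibitor, against 9.39 and 9.49 with the JAK1/2 inhibitor and 9.55 and 9.59 with the pan-JAK inhibitor. It was thus not higher at 8 h than at 2 h with the JAK1 inhibitor, unlike the mean of the type I list. This was not particular to the JAK1 inhibitor. The GTPase mean was also lower at 8 h with the TYK2 inhibitor (9.46 and 9.42), the JAK2 inhibitor (10.09 and 9.83) and the JAK3 inhibitors (10.03 and 9.75, 10.08 and 9.70). Without the 8 h array of the JAK1 inhibitor, the median difference of the GTPases was -0.70. Without the 3 arrays with more skeletal muscle RNA, which left the pan-JAK inhibitor alone to compare with, that median was -0.77.

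Of the transcription factors downstream of the receptor, 4 of 21 tested genes of the list of JAKs, STATs, IRFs and interferon receptors were called lower and 0 higher. These were Irf7, described above, and Stat2, Irf9 and Irf1. Of all genes tested, 0.954% were called lower. Stat2, a part of the interferon-activated complex, was at 8.48 and 9.15 with the JAK1 inhibitor, against 9.17 and 9.23 at 2 h and 10.002 and 10.04 at 8 h with the JAK1/2 and pan-JAK inhibitors (-0.80, SE 0.16, adjusted p = 0.0313). Irf9, which brings that complex to DNA, was at 10.09 and 10.25 with the JAK1 inhibitor, against 10.58 and 10.55 at 2 h and 10.93 and 10.89 at 8 h (-0.57, SE 0.08, adjusted p = 0.00254). Irf1 was at 9.504 and 9.73 with the JAK1 inhibitor, against 10.05 and 10.18 at 2 h and 10.06 and 10.01 at 8 h (-0.46, SE 0.10, adjusted p = 0.0333). All 4 calls held without the 8 h array of the JAK1 inhibitor, with adjusted p-values from 0.000465 to 0.0467. Those of Stat2 and Irf1 did not hold under quantile normalization or cyclic loess. Both were also lost without the arrays of the JAK1/2 inhibitor and without those of the pan-JAK inhibitor. In all, the call of Stat2 was lost in 6 of the alternative settings and that of Irf1 in 12.

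The genes of the kinases and receptor chains were not called with time in the fit, at either time alone, in the change or in any pair. Jak1, the labelled target of the JAK1 inhibitor, was at 11.84 and 11.99 with the JAK1 inhibitor, against 11.79 and 11.84 at 2 h and 12.14 and 12.13 at 8 h with the JAK1/2 and pan-JAK inhibitors (-0.06, SE 0.06, 95% interval -0.19 to 0.08). Jak2 differed by -0.14 and Tyk2 by 0.12, with standard errors of 0.07 and 0.10. Ifnar1 and Ifnar2 differed by -0.11 and -0.04. The signs of Jak1 and Ifnar2 turned without the 8 h array of the JAK1 inhibitor (0.04 and 0.01). Among the STAT genes outside the interferon complex, Stat3, Stat4, Stat5a, Stat5b and Stat6 lay between -0.079 and -0.002 with time in the fit, and all of these took the other sign under quantile normalization, with values from 0.000 to 0.056. Jak3 was not analysed here.

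Of 18 feedback inhibitors of the pathway, Usp18 was the 1 called with time in the fit. At 2 h, where 1.5% of all genes were lower, 4 of the 18 were called lower. Of 16 cytokine receptor chains, 0 were called with time in the fit, where 0.954% of all genes were lower, and 3 were lower at 8 h, where 16% of all genes were. Il10ra, the interleukin-10 receptor chain that carries JAK1, was at 8.67 and 8.87 with the JAK1 inhibitor, against 8.93 with both compounds at 2 h and 9.31 and 9.41 at 8 h (-0.37, adjusted p = 0.105).

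Class I antigen presentation had 3 of 16 tested members called lower and 0 higher, with a median of -0.17. Over all genes tested, 0.954% were called lower and the median was -0.05. H2-T24, a non-classical class I gene, was at 9.06 and 9.76 with the JAK1 inhibitor, against 9.83 and 9.80 at 2 h and 10.79 and 10.83 at 8 h with the JAK1/2 and pan-JAK inhibitors (-0.90, SE 0.09, adjusted p = 0.000202). Psmb9, a subunit of the immunoproteasome, was at 10.69 and 10.45 with the JAK1 inhibitor, against 10.98 and 11.17 at 2 h and 11.20 and 11.14 at 8 h (-0.55, adjusted p = 0.00345). Psme2, a proteasome activator, differed by -0.44 (adjusted p = 0.0258), and its call was lost without the 8 h array of the JAK1 inhibitor (adjusted p = 0.266). Tap2, which moves peptides into the endoplasmic reticulum, differed by -0.33 and was not called (adjusted p = 0.0836). B2m, picked after its value was seen, the light chain of class I molecules, differed by 0.08.

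Targets of interleukin-2 and STAT5 had 0 of 30 members called with time in the fit, but 7 were called lower and 0 higher at 2 h, where 1.5% of all genes were lower. Cish, a feedback inhibitor that STAT5 induces, was at 8.99 at 2 h with the JAK1 inhibitor, against 9.89 and 9.62 with the JAK1/2 and pan-JAK inhibitors (-0.77, SE 0.11, adjusted p = 1.8e-07). At 8 h it was at 8.10 with the JAK1 inhibitor, against 8.26 and 8.08, so that the array of the JAK1 inhibitor lay between the other 2. The change of its difference from 2 h to 8 h was 0.71 and was not called (adjusted p = 0.146). The other genes called at 2 h were Ccnd3 (-0.43), Pim1 (-0.40), Socs2 (-0.40), Socs1 (-0.38), Pim2 (-0.34) and Bcl2 (-0.31), which serve the cell cycle, survival and feedback on cytokine signals. Ccnd3 and Pim2 were picked after their values were seen. The call of Socs1 was lost under quantile normalization and cyclic loess, that of Bcl2 under quantile normalization, and those of all of these but Cish with no variance trend. The list mean at 2 h was 9.86 with the JAK1 inhibitor, against 10.04 with the JAK1/2 inhibitor and 9.996 with the pan-JAK inhibitor, and 9.97 and 9.93 with the JAK3 inhibitors. The list median was -0.15 at 2 h and -0.12 at 8 h, where all genes had medians of 0.01 and -0.10. Without the 8 h array of the JAK1 inhibitor, the fit with time called 1 member of the list, Cish (adjusted p = 0.0343). The STAT letters TTCNNNGAA were in 5 of 25 windows of the list (20.0%) and the interferon element in 1 (4.0%).

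Lists for T cell activation, cytokines, lineage factors, metabolism and the cell cycle held few calls with time in the fit. At 8 h, where 16% of all genes were lower and 2.19% higher, some held more. Lower at 8 h were 12 of 32 oxidative phosphorylation genes, 10 of 26 ATF4 and amino acid genes and 10 of 27 MYC targets. So were 9 of 32 G1 and S phase and 9 of 29 G2 and mitosis genes. Higher at 8 h in these lists was 1 ATF4 and amino acid gene. T helper lineage factors and quiescence and homing genes had 0 called at 8 h. Of all genes tested, 0.954% were called lower with time in the fit and 0.0338% higher. With time in the fit, 0 members were called in T helper lineage factors (16 tested), effector cytokines and chemokines (17), quiescence and homing genes (17), costimulatory and inhibitory receptors (21), glycolysis and hypoxia (23), ATF4 and amino acid genes (26), G1 and S phase (32) and G2 and mitosis (29). Atp5a1, a subunit of ATP synthase, was the 1 of 32 oxidative phosphorylation genes called (-0.40, adjusted p = 0.00345), Fdps the 1 of 22 sterol genes (-0.61, adjusted p = 0.0122) and Gar1 the 1 of 27 genes of MYC targets and ribosome biogenesis (-0.42, adjusted p = 0.0367). The calls of Fdps and Gar1 were lost without the 8 h array of the JAK1 inhibitor. That of Gar1 was lost in 14 settings in all, among them quantile normalization, median centring and cyclic loess. That of Fdps was lost in 4 settings in all. That of Atp5a1 was lost in 3, among them the fits without the pan-JAK inhibitor and with only the 6 arrays. At 2 h, 4 of the 32 oxidative phosphorylation genes were lower and 2 higher (1.5% and 0.489% of all genes were). T cell activation genes had a median of 0.13 with 0 of 29 members called with time in the fit, and at 8 h 5 were higher and 1 lower. At 2 h, 2 of them were called higher (0.489% of all genes were): Nr4a3 was at 11.12 with the JAK1 inhibitor, against 10.84 and 10.74 with the JAK1/2 and pan-JAK inhibitors (0.34, adjusted p = 0.021), and Nr4a2, picked after its value was seen, differed by 0.47. Both are nuclear receptors induced early by the T cell receptor. Without the 3 arrays with more skeletal muscle RNA, which left the pan-JAK inhibitor alone to compare with, the median of the activation list was 0.02.

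**Figure D3:**
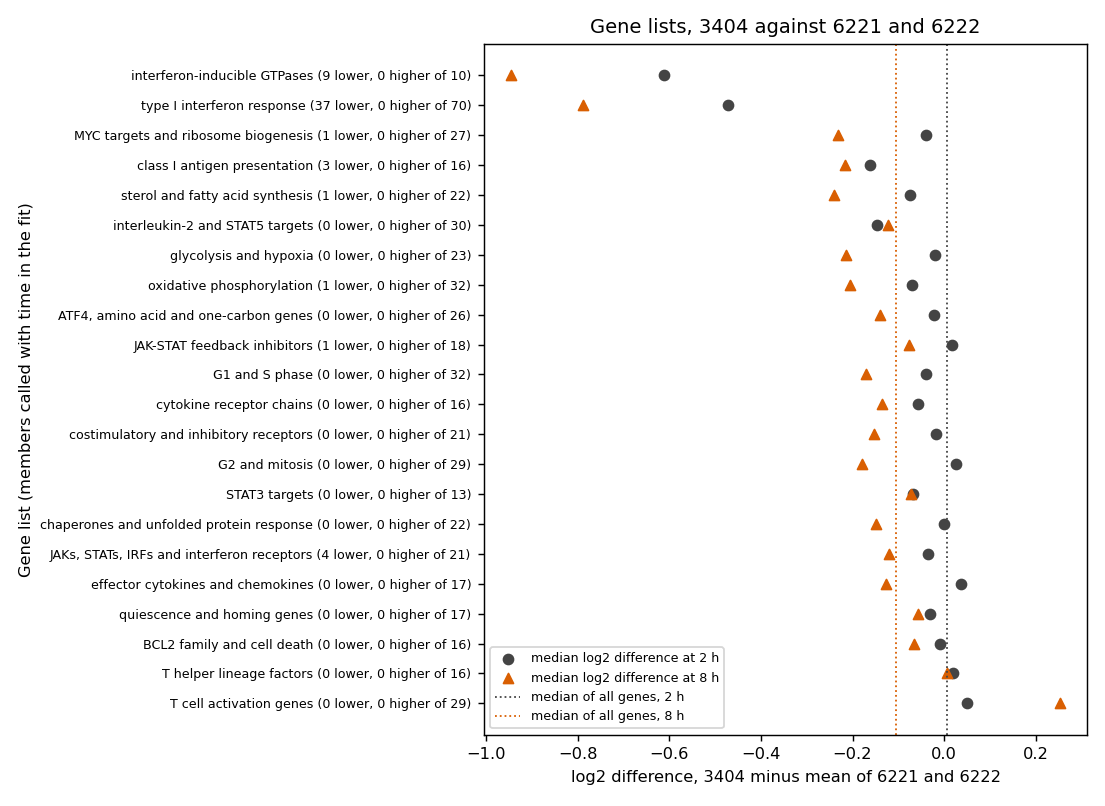
Median log2 difference between the JAK1 inhibitor and the mean of the JAK1/2 and pan-JAK inhibitors for each of 22 gene lists, with circles for 2 h and triangles for 8 h; dotted lines mark the medians of all genes (0.01 at 2 h and -0.10 at 8 h), and the labels give the members called with time in the fit. The 2 interferon lists lie farthest to the left, at -0.61 and -0.95 for the GTPases and -0.47 and -0.79 for the type I list.

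Of the 113 genes called lower, 46 were in an interferon list, 7 in another list only and 60 in no list. Without the 8 h array of the JAK1 inhibitor, 27 of the 46 were called and 21 of the 60. Some of the 60 are known to respond to interferon, named here after their values were seen. Ddx60, a helicase that helps to sense viral RNA, was at 5.62 and 6.00 with the JAK1 inhibitor, against 6.29 and 6.60 at 2 h and 7.93 and 8.13 at 8 h with the JAK1/2 and pan-JAK inhibitors (-1.43, adjusted p = 0.00194). Both Ddx60 levels with the JAK1 inhibitor lay under 6.269, the mean level set for testing. Samd9l was at 7.66 and 8.65 with the JAK1 inhibitor, against 8.56 and 8.78 at 2 h and 9.87 and 9.93 at 8 h (-1.13, adjusted p = 0.000293). Tlr7, an endosomal receptor for RNA, differed by -0.88 (adjusted p = 0.00994), a call lost without the 8 h array.

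Others of the 60 serve every cell. Park7, a protein that guards against oxidation, was at 11.06 and 10.41 with the JAK1 inhibitor, against 11.48 and 11.75 at 2 h and 11.38 and 11.34 at 8 h with the JAK1/2 and pan-JAK inhibitors (-0.75, adjusted p = 0.00136). Eif5a, a translation factor, was at 11.58 and 11.05 with the JAK1 inhibitor, against 12.11 and 12.34 at 2 h and 11.54 and 11.53 at 8 h (-0.56, adjusted p = 0.00197). Both calls held without the 8 h array of the JAK1 inhibitor. Gdap10 differed by -1.09 (adjusted p = 0.000202).

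At 2 h alone, which uses no 8 h array, 178 genes were called lower and 58 higher. The 5 largest lower differences were Rtp4 (-2.39), Usp18 (-1.92), Ifi213 (-1.78), Irf7 (-1.71) and Ifit1 (-1.70), all also among the 10 largest with time in the fit. Of the 178, 43 were members of the type I list, 9 were GTPases and 98 were called with time in the fit. The spread at 1 time comes from the JAK1/2 against the pan-JAK inhibitor and the JAK3 inhibitors against each other, with 2 residual degrees of freedom. It is then drawn toward a trend with mean intensity fitted over all genes (median total 51.3 degrees of freedom). P-values at 2 h thus rest on the assumption that the JAK1 inhibitor varies like those pairs. The 5 largest higher differences were Rnu12 (0.70), an immunoglobulin kappa variable gene (0.63), 1700031F05Rik (0.61), Zfp951 (0.55) and S100a1 (0.52). Of these, Rnu12 alone was also called with time in the fit. Without the arrays of the JAK1/2 inhibitor the counts at 2 h were 326 lower and 266 higher, and without those of the pan-JAK inhibitor they were 136 lower and 13 higher. Both of these fits took their spread from the JAK3 pair alone. Lif, a cytokine gene, was lower at 2 h (7.11 with the JAK1 inhibitor, against 7.83 and 7.53 with the JAK1/2 and pan-JAK inhibitors, a difference of -0.57).

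At 8 h, 1897 genes were called lower (16%) and 260 higher (2.19%), and the median of all genes was -0.10. Quantile normalization gave 1296 lower and 928 higher, and cyclic loess 1204 lower and 935 higher, with medians of -0.02. Without the arrays of the JAK1/2 inhibitor 5706 genes were called in either direction, and without those of the pan-JAK inhibitor 4407. Both of these fits took their spread from the JAK3 pair alone. The shift of the median was larger among bright genes: in 5 groups of equal size from dim to bright the medians at 8 h were -0.01, -0.06, -0.13, -0.18 and -0.15, against values from -0.01 to 0.02 at 2 h. Of the 178 genes lower at 2 h, most were also lower at 8 h (68.0% of the 178 and 6.38% of the 1897), and 11 were higher at 8 h. The largest lower differences at 8 h were Ifit3 (-2.40), Rsad2 (-2.19), Rtp4 (-2.13), Usp18 (-2.11) and Oasl2 (-2.10), all interferon genes. Psmb4, a proteasome subunit, was at 11.27 at 2 h and 9.78 at 8 h with the JAK1 inhibitor, against 11.49 and 11.59 at 2 h and 11.45 and 11.43 at 8 h with the JAK1/2 and pan-JAK inhibitors (change of the difference -1.40, adjusted p = 0.0148).

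**Figure D4:**
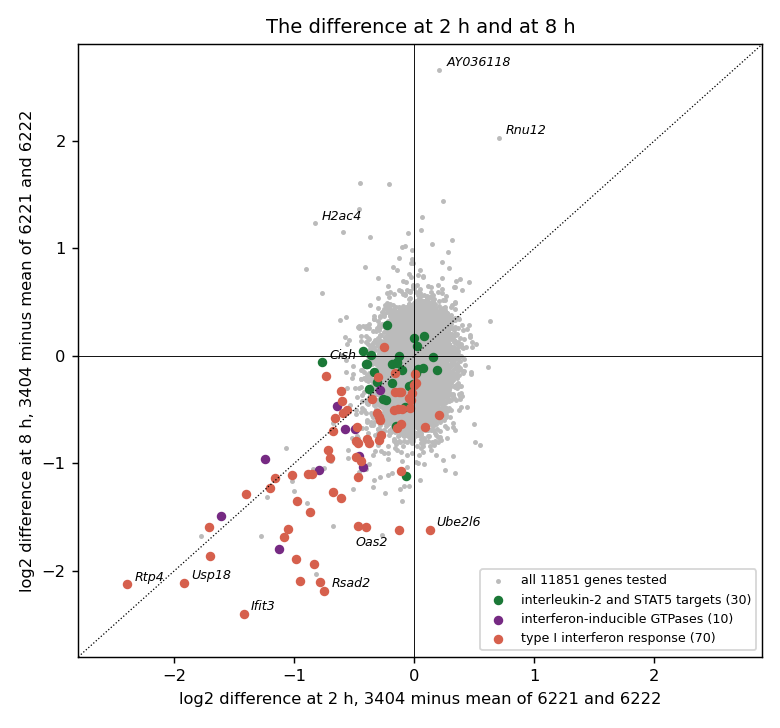
Difference between the JAK1 inhibitor and the mean of the JAK1/2 and pan-JAK inhibitors on the log2 scale at 2 h (horizontal) and 8 h (vertical) for all 11851 genes tested, with 3 lists in colour and a dotted line where both are equal. Rtp4 and Usp18 lie near the line, at -2.39 and -2.13 and at -1.92 and -2.11, while Oas2 and Ube2l6 lie far below it.

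The 4 genes higher with the JAK1 inhibitor with time in the fit were small structural RNAs and a histone. Rnu12, the small nuclear RNA U12 of the minor spliceosome, was at 8.10 at 2 h and 9.36 at 8 h with the JAK1 inhibitor, against 7.49 and 7.29 at 2 h and 7.33 with both compounds at 8 h (1.37, SE 0.24, adjusted p = 0.0122), and without the 8 h array the difference was 0.65 (adjusted p = 0.0482). The call was lost without the arrays of the JAK1/2 inhibitor and without those of the pan-JAK inhibitor. Snora44 (0.70), Snora3 (0.62) and H2bc14 (0.36) were not called without that array. The genes with the largest higher change of the difference from 2 h to 8 h (15 were called, 0.127%) were AY036118, a long non-coding RNA (change 2.46), the histone gene H2ac4 (2.06), Rprl1, an RNase P RNA (2.06), Srsy (1.83) and Gm10874 (1.81).

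AY036118 was at 10.72 and 12.90 with the JAK1 inhibitor, against 10.66 and 10.38 at 2 h and 10.03 and 10.45 at 8 h with the JAK1/2 and pan-JAK inhibitors. Small RNAs and histone genes were grouped after their values were seen. Of 45 snoRNA genes tested, 13 were higher and 6 lower at 8 h, where 2.19% of all genes were higher and 16% lower, and 0 were higher and 5 lower at 2 h, where 1.5% of all genes were lower. Of 29 histone genes, 13 were higher and 2 lower at 8 h, and 0 were higher and 1 lower at 2 h. The part of these RNAs in the calls at 8 h was not tested.

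**Figure D5:**
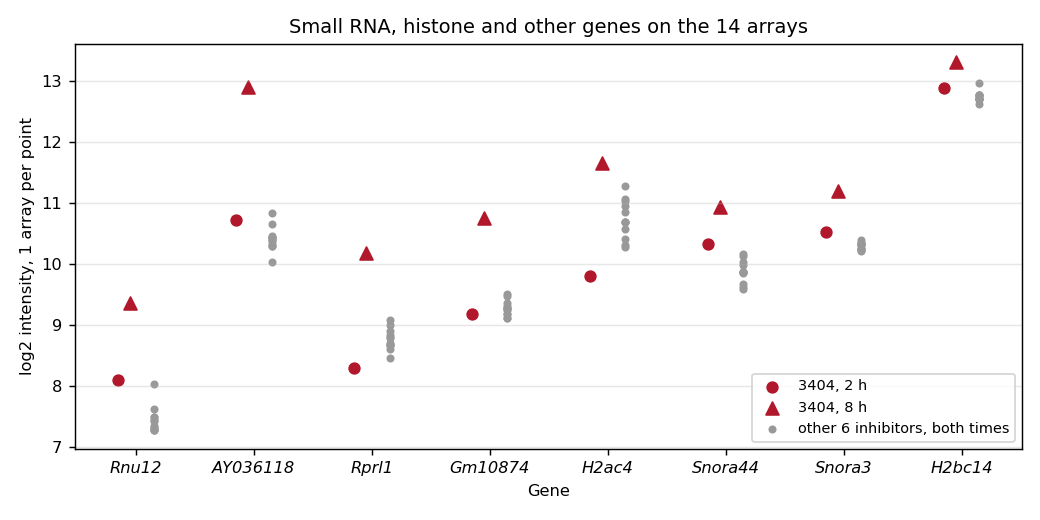
Log2 intensity of 8 small RNA, histone and other genes, with circles for the JAK1 inhibitor at 2 h, triangles for the JAK1 inhibitor at 8 h and grey points for the other 6 inhibitors at both times, 1 array per point. The 8 h array of the JAK1 inhibitor lies above all other arrays for each gene, at 12.90 for AY036118 and 9.36 for Rnu12.

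Between single compounds, 3 pairs were compared, with p-values adjusted over all genes of the 3 pairs together. The JAK1 inhibitor was lower than the JAK1/2 inhibitor for 35 genes (0.295%) and lower than the pan-JAK inhibitor for 55 (0.464%), and higher than either for 0, where 214 and 273 were higher at an unadjusted p under 0.05. Of the 35, 34 were also among the 55, but both pairs share the arrays of the JAK1 inhibitor. Rtp4 was 4.51-fold lower with the JAK1 inhibitor than with the JAK1/2 inhibitor (-2.17, 95% interval -2.71 to -1.64, adjusted p = 0.00151) and 5.09-fold lower than with the pan-JAK inhibitor (-2.35, interval -2.88 to -1.81, adjusted p = 0.00103). Usp18 was 3.92-fold and 4.17-fold lower.

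The JAK1/2 and pan-JAK inhibitors differed for 1 gene (0.00844%), where 251 had an unadjusted p under 0.05. That gene was Atp2a1, the calcium pump of skeletal muscle, at 7.87 and 7.81 with the JAK1/2 inhibitor, against 6.80 and 6.79 with the pan-JAK inhibitor (1.04, SE 0.16, adjusted p = 0.0116). Rtp4 differed by -0.17 between the JAK1/2 and pan-JAK inhibitors (interval -0.71 to 0.36) and Usp18 by -0.09 (interval -0.69 to 0.51). With 2 arrays each, differences between these 2 compounds within those intervals are not excluded. Over the 70 tested members of the type I list the median was -0.08 between the JAK1/2 and pan-JAK inhibitors, with 0 called, while 17 members were lower with the JAK1 inhibitor than with the JAK1/2 inhibitor and 24 than with the pan-JAK inhibitor.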

How the data were processed

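RNA of 14 cultures, 1 per inhibitor and time, was hybridised to Affymetrix Mouse Gene 1.0 ST arrays. The deposited values are intensities on a linear scale, made with RMA in Affymetrix Power Tools as far as the submitters' processing notes list tools (versions not given in the sources used here). From the deposited intensities, log2 values were computed. Of 24922 probe sets, 21425 carry 1 gene symbol in the platform annotation, 1399 several and 2098 none; only the first were used, with the brightest probe set kept for each of 19752 symbols. Of the 21425, 21347 matched RefSeq (GRCm38.p6). Genes with a mean log2 intensity of at least 6.269, the 40th percentile, were tested, which left 11851.

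Inhibitor and time were fitted additively to all 14 arrays with limma 3.58.1 in R 4.3.3 (lmFit and eBayes with a variance trend, 6 residual degrees of freedom), so the residual holds the part of each inhibitor's response that changes with time as well as noise. At 1 time, inhibitors were grouped by target label (2 residual degrees of freedom, from the JAK1/2 and pan-JAK inhibitors, grouped together, and from the JAK3 pair), and the change from 2 h to 8 h was fitted by the same classes on each inhibitor's difference. In the fits at 1 time and of the change, leaving out 1 compound of either pair left the other pair alone to give the spread. P-values were adjusted by Benjamini-Hochberg over all genes, and for the 3 pairs of compounds over all genes of the 3 pairs together. An adjusted p under 0.05 was a call. The scripts were tested on simulated data. The number of arrays limits the precision. No 2 arrays held identical values.

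Genes named are the 10 largest differences in each direction with time in the fit (level with the JAK1 inhibitor outside both other compounds at both times), the 5 largest in each direction elsewhere, up to 4 members of each list, and the genes of the JAK and STAT pathway; others are said to have been picked after their values were seen. The members, gene lists and tests were chosen with earlier results of these data known. Promoter windows are the 250 bases before each gene start in RefSeq. Alternatives covered normalization, the filter, the choice of probe set and the variance model. They also covered an offset of 50, a minimum fold of 1.5 and the arrays entering the fit. The fit without the 3 arrays with more skeletal muscle RNA was chosen after seeing the data. It compares 1 array of the JAK1 inhibitor with the pan-JAK inhibitor alone.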

Additional observations from a re-analysis of the deposited data

Results flagged for a closer look

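The change of the difference between the JAK1 inhibitor and the other 2 compounds from 2 h to 8 h was tested, and 26 genes had a lower and 15 a higher change (adjusted p under 0.05, limma with Benjamini-Hochberg adjustment). The lower changes were led by Ube2l6 (-1.75), Oas2 (-1.495), Rsad2 (-1.44), the microRNA gene Mir505 (-1.43) and Psmb4 (-1.40). The higher changes were led by AY036118 (2.46), H2ac4 (2.06), Rprl1 (2.06), Srsy (1.83) and Gm10874 (1.81). All of these values contain the 8 h array of the JAK1 inhibitor, which had the lowest mean correlation with the other arrays of its time.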

How the results depend on the processing

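Genes named in the text kept their direction and their side of the threshold in 2051 of the gene and setting combinations run, fell short of the threshold in 187, passed it in 1 and turned sign in 26. The cause was not tested. With time in the fit, 117 genes were called, against 73 with no variance trend, 71 with a fold of at least 1.5 and 66 without the 8 h array of the JAK1 inhibitor, and from 42 to 142 when both arrays of 1 inhibitor were left out. At 2 h, 236 were called, against 149 with no filter (133 lower), 78 with no variance trend (73 lower) and 60 with a fold of at least 1.5, and from 149 to 592 with 1 inhibitor left out. At 8 h, 2157 were called, against 1247 with median centring, 657 with no variance trend and 446 with a fold of at least 1.5, and from 1440 to 5706 with 1 inhibitor left out (5706 without the JAK1/2 inhibitor, 4407 without the pan-JAK inhibitor).

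For the change between times, 41 were called, against 315 with median centring, 20 with cyclic loess, 14 with no filter, 411 with a filter at the 60th percentile and 354 with an offset of 50, and from 40 to 1042 with 1 inhibitor left out (1042 without the JAK1/2 inhibitor, 63 without the pan-JAK inhibitor). For the JAK1 inhibitor against the JAK1/2 inhibitor, 35 were called, against 23 with quantile normalization and 20 with no variance trend, and from 26 to 42 with 1 inhibitor left out. For the JAK1 inhibitor against the pan-JAK inhibitor, 55 were called, against 33 with quantile normalization, 34 with cyclic loess and 36 with no variance trend, and from 47 to 64. For the JAK1/2 against the pan-JAK inhibitor, 1 was called, against 2 with median centring, with no filter and with the mean of the probe sets, 0 with a filter at the 60th percentile and 4 with only the 6 arrays, and from 1 to 2.

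Differences that turned sign were small in the main setting except those of Ube2l6. Under quantile normalization these were Ifnar2 (0.034), Stat3 (0.005), Stat4 (0.056), Stat5a (0.000), Stat5b (0.029) and Stat6 (0.038), and under cyclic loess Ifnar2 (0.029), Stat4 (0.049), Stat5a (0.001), Stat5b (0.033) and Stat6 (0.035). Without the 8 h array of the JAK1 inhibitor these were Ifnar2 (0.007), Jak1 (0.037), Ly6e (0.020), Stat4 (0.103), Stat5b (0.006), Stat6 (0.120) and Ube2l6 (0.044). Without the 3 arrays with more skeletal muscle RNA these were Jak1 (0.025), Ly6e (0.033), Stat4 (0.054), Stat6 (0.116) and Ube2l6 (0.004). Without the arrays of the pan-JAK inhibitor, Stat4 was at 0.051 and Oas2 at 2 h at 0.003 (-0.056 and -0.260 without those of the JAK1/2 inhibitor), and with an offset of 50 the change of Rtp4 was -0.094.

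No paired analysis was possible because each compound and time has 1 array, so the groups share fewer than 2 replicate numbers to serve as a block; time is a term of the fit instead. With 1 array each, a compound's effect and its culture or array cannot be told apart, and adjusted p-values rest on the spread among inhibitors.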
